A study of Bos taurus with 15 samples.

Results

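The interferon tau, pregnancy-associated glycoprotein and related trophoblast signal genes of bovine blastocysts were examined across 3 culture treatments. The 8 names considered were IFNT, IFNT2, IFNT3, PAG2, PAG11, PAG12, PTGS2 and SSLP1, and they matched 7 of the 34773 gene records in the unfiltered count table, because IFNT is an alias of both IFNT2 (NCBI Gene 317698) and IFNT3 (NCBI Gene 100313956). Records were chosen by symbol only, the PAG names referring to the placental aspartic proteases and not to the membrane adaptor gene that shares the abbreviation. Of the 7 records, 5 (IFNT3, PAG2, PAG11, PTGS2 and SSLP1) were also among the 10832 genes of the authors' filtered table, while IFNT2 and PAG12 were not.

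The embryos were produced by in vitro fertilization and cultured without vesicles (Co) or with oviductal extracellular vesicles (oEVs) that were added fresh (FeEV) or after freezing (FoEV). The vesicles came from the oviductal fluid of postovulatory cows collected at a slaughterhouse. The discussion of the study describes fresh and frozen vesicles as portions from the same oviducts. Each library was made from 1 ng of total RNA of a pool of 8 to 14 embryos, described by the labels as day 7 blastocysts and by the methods as having been cultured for 8 days, and each treatment had 5 libraries. A pool averages its embryos, and fewer trophoblast cells and less RNA per cell cannot be told apart in these values.

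Interferon tau is the ruminant signal for maternal recognition of pregnancy: the trophectoderm secretes it, it acts on the endometrium through the type I interferon receptor, and it prevents the prostaglandin pulses that would end the life of the corpus luteum. The pregnancy-associated glycoproteins are aspartic protease family members secreted by trophoblast, and PAG2, PAG11 and PAG12 belong to the ancient branch of the family, which is expressed widely over the placenta. PTGS2 encodes the inducible cyclooxygenase that commits arachidonic acid to prostaglandin synthesis, and SSLP1 (also SOLD1) encodes a small secreted Ly-6 domain protein of trophoblast. The comparison asks whether oEVs changed the messengers of these early trophoblast products.

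Total counts ranged from 2571558 to 2977004 per library in Co, from 2136713 to 3808602 in FeEV and from 3392613 to 4058887 in FoEV, so every FoEV library was deeper than every Co library. Levels are given as CPM, the reads of a gene in 1000000 counted reads, after scaling by the trimmed mean of M-values; they are not divided by transcript length and are therefore compared between libraries and not between genes. In this depth a count of 0 allows 3 reads, which is between 0.694 and 1.37 CPM depending on the library. The labels do not say that libraries of a treatment came from separate culture runs, so p-values measure the spread between these pools. Intervals and limits that are computed from read counts cover counting error only.

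No member differed detectably between treatments. In each of the 3 comparisons 0 of the 5 members in the filtered table passed an adjusted p of 0.05 in the edgeR quasi-likelihood test (Benjamini-Hochberg adjustment across the filtered table). The count was also 0 at a raw p under 0.05, and 0 by the Wald test of DESeq2, which gave no adjusted p for PAG11 in FoEV against Co. IFNT2 and PAG12, tested among the 17993 genes with at least 10 reads, gave the same count of 0 of 2 by the quasi-likelihood test. By this quasi-likelihood test the whole transcriptome gave few calls too: 0.00923% of the genes in the filtered table passed for FoEV against Co, 0% for FeEV against Co and 0% for FoEV against FeEV, and 0.00556%, 0% and 0% in the wider table. The background depended on the test, since FoEV against Co gave 1 gene here, 138 with DESeq2 and 311 with a likelihood ratio test after robust dispersion. At an unadjusted p under 0.05, 8.18% of filtered genes were higher and 6.88% lower in FoEV than in Co, 1.83% higher and 2.32% lower in FeEV than in Co, and 4.83% higher and 3.69% lower in FoEV than in FeEV. The ranges of the paired treatments overlapped for every member in every comparison, against 2.6%, 0.951% and 1.5% of filtered genes without overlap in the same order of comparisons.

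IFNT3 carried most of the interferon tau reads. Its level was 71.5, 21.6, 83.8, 35.7 and 71.8 CPM in Co replicates 1 to 5. In FeEV it was 56.6, 17.5, 51.6, 21.4 and 34.6 CPM, and in FoEV it was 137, 80.7, 31.4, 15.7 and 80.1 CPM. The lowest value of all 15 (FoEV replicate 4) and the highest (FoEV replicate 1) therefore belonged to the same treatment, and the 3 treatments overlapped over most of their range. The means were 56.9 ± 26.7 CPM (SD, n = 5 each) in Co, 36.3 ± 17.5 CPM in FeEV and 69.1 ± 47.9 CPM in FoEV. In the edgeR quasi-likelihood fit the log2 fold change was 0.29 for FoEV against Co (SE 0.54, Benjamini-Hochberg adjusted p = 0.829) and -0.62 for FeEV against Co (SE 0.57, adjusted p = 1.00). FoEV replicate 1 set the sign of the first of these, which was -0.12 without it. The widest separation was between the vesicle treatments, with a log2 fold change of 0.92 for FoEV against FeEV (SE 0.55, 95% interval -0.29 to 2.12, edgeR adjusted p = 0.656), an interval that runs from 0.820-fold to 4.35-fold. An exact permutation test of the same 10 libraries on log2 CPM gave p = 0.286 (two-sided), and the smallest p this design allows is 0.00794. FoEV exceeded every FeEV value in 3 of its 5 libraries. Leaving out 1 library at a time moved this fold change between 0.51, without FoEV replicate 1, and 1.16, without FoEV replicate 4.

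IFNT2 was detected at a far lower read count, 144 reads over the 15 libraries against 2725 for IFNT3. It had 8, 2, 16, 2 and 9 reads in Co replicates 1 to 5, 7, 1, 6, 3 and 12 in FeEV, and 41, 22, 4, 0 and 11 in FoEV. Most of its reads in FoEV came from replicates 1 and 2, which were also the highest FoEV libraries for IFNT3. The log2 fold change was 0.56 for FoEV against Co (SE 0.73), -0.48 for FeEV against Co (SE 0.82) and 1.04 for FoEV against FeEV (SE 0.75), with edgeR adjusted p-values from 0.773 to 0.995 after Benjamini-Hochberg adjustment. Without FoEV replicate 1 the first of these became -0.10, and the third 0.39.

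The share of IFNT2 in the reads of both records had overlapping intervals in the 3 treatments: 4.51% in Co (37 of 821 reads, Wilson 95% interval 3.29 to 6.15), 4.82% in FeEV (29 of 602, 3.37 to 6.83) and 5.39% in FoEV (78 of 1446, 4.34 to 6.68). In single libraries it lay between 0% (0 of 47 reads in FoEV replicate 4, upper limit 7.56%) and 8.82% (12 of 136 in FeEV replicate 5, interval 5.12 to 14.8). The interferon tau genes are near-identical copies, IFNT3 and IFNT2 being separated by a single pseudogene record in the annotation, and how reads matching several copies were assigned is not given in the sources used here. The split between them is therefore uncertain. A further record named IFN-tau-c1 had 66 reads in all and one named IFN-TAU had 0, which allows 3 reads of the 47673914 counted. The 13 and 13 IFN-tau-c1 reads of FoEV replicates 1 and 2 again stood above the 0, 0 and 7 of the other FoEV libraries.

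**Figure D1:**
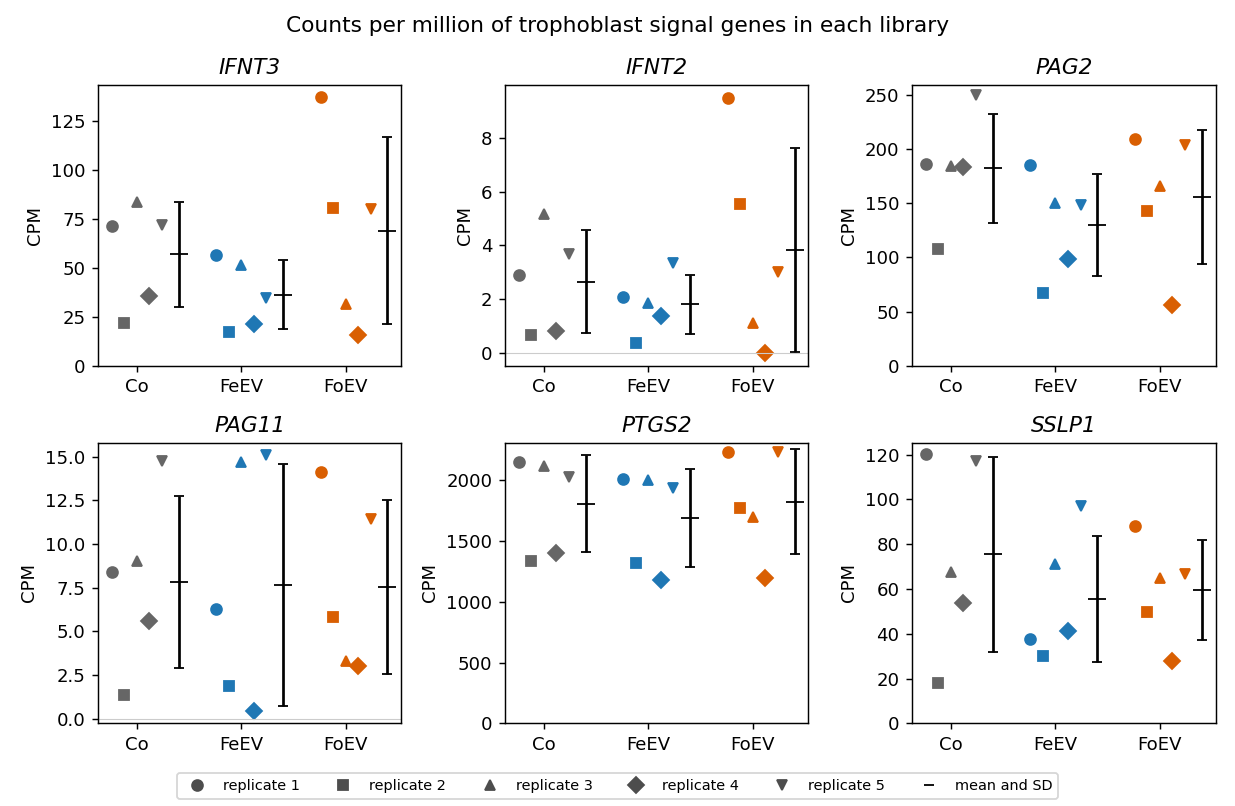
Level (CPM, vertical axis from 0) of 6 of the 7 members in each library of Co, FeEV and FoEV, with a marker shape for each replicate and the mean and SD of 5 libraries beside them. The treatments overlap in every panel, and FoEV replicate 1 is the highest library for IFNT3 at 137 CPM while FoEV replicate 4 is the lowest at 15.7 CPM.

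Among the pregnancy-associated glycoproteins PAG2 was the one with many reads, 7485 in all. It stood at 186, 108, 185, 183 and 250 CPM in Co, at 185, 67.2, 150, 98.4 and 148 CPM in FeEV, and at 209, 143, 166, 56.4 and 204 CPM in FoEV. The lowest library of each treatment was Co replicate 2, FeEV replicate 2 and FoEV replicate 4, and the treatments overlapped. The means were 182 ± 50.2, 130 ± 46.8 and 156 ± 61.7 CPM (SD, n = 5 each). The log2 fold change was -0.22 for FoEV against Co (SE 0.35), -0.48 for FeEV against Co (SE 0.35, 95% interval -1.24 to 0.28) and 0.26 for FoEV against FeEV (SE 0.35), and the smallest edgeR adjusted p of the 3 was 0.798 (Benjamini-Hochberg). The first became -0.012 without FoEV replicate 4, and the third 0.094 without FeEV replicate 2.

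PAG11 was nearer the limit of detection, with 380 reads. Its counts were 23, 4, 28, 14 and 36 in Co, 21, 5, 47, 1 and 54 in FeEV, and 61, 23, 12, 9 and 42 in FoEV. FeEV replicates 2 and 4 and Co replicate 2 held 5 reads or fewer each, and each treatment also held libraries with more than 30. Its treatment means were close, at 7.83 ± 4.92, 7.67 ± 6.93 and 7.54 ± 5.00 CPM (SD, n = 5 each). The log2 fold changes were -0.01, 0.06 and -0.07 for FoEV against Co, FeEV against Co and FoEV against FeEV, but each had an SE between 0.68 and 0.70, so that the interval for FoEV against Co reached from 0.347-fold to 2.84-fold. The sign of all 3 depended on the setting.

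PAG12, which lies directly beside PAG2 in the annotation, was at the limit of detection. It had 0, 1, 1, 2 and 1 reads in Co, 1, 0, 0, 0 and 1 in FeEV, and 2, 1, 4, 1 and 2 in FoEV. Only FoEV replicate 3, with 4 reads, exceeded the 3 reads that a count of 0 allows. FoEV against FeEV gave the only exact permutation p under 0.05 among the 21 member comparisons (p = 0.0238, two-sided, not adjusted), but with 10 reads against 2 and deeper FoEV libraries no fold change is given, and the edgeR adjusted p was 0.674 (Benjamini-Hochberg). The 16 other PAG records were sparser still as a set: 10 had 0 reads in every library and 6 had any, led by PAG8 with 55 reads and PAG10 with 7. PAG8 had 0 to 8 reads per library, and its 3 libraries at 0 were FeEV replicates 2 and 4 and FoEV replicate 4, which were also low for PAG2.

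PTGS2 was among the most heavily counted genes, with 85542 reads and only 18 genes of the filtered table above it. It stood at 2145, 1337, 2111, 1402 and 2027 CPM in Co. In FeEV the values were 2012, 1314, 2002, 1179 and 1930 CPM, and in FoEV they were 2227, 1770, 1698, 1192 and 2226 CPM. In Co and in FeEV the libraries fell into a lower pair (replicates 2 and 4) and an upper set with nothing between, and in FoEV replicate 4 alone was low. The treatments covered the same range. The log2 fold change was 0.01 for FoEV against Co (SE 0.21, 95% interval -0.42 to 0.45), -0.10 for FeEV against Co (SE 0.21, -0.53 to 0.34) and 0.11 for FoEV against FeEV (SE 0.21, -0.33 to 0.55). These are the narrowest intervals of any member and extend from 0.690-fold to 1.46-fold, and the smallest edgeR adjusted p was 0.892 (Benjamini-Hochberg).

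SSLP1 varied more than PTGS2. Its level was 120, 18.2, 67.7, 53.8 and 117 CPM in Co, 37.6, 30.1, 71.0, 41.4 and 97.2 CPM in FeEV, and 88.2, 49.9, 65.0, 28.0 and 66.5 CPM in FoEV. Co held both the lowest and the 2 highest libraries of all 15. The means were 75.5 ± 43.5, 55.5 ± 28.0 and 59.6 ± 22.3 CPM (SD, n = 5 each), and the log2 fold changes were -0.33 for FoEV against Co (SE 0.47), -0.42 for FeEV against Co (SE 0.48) and 0.10 for FoEV against FeEV (SE 0.48). The smallest edgeR adjusted p for SSLP1 was 0.783 (Benjamini-Hochberg). With 1 library left out the first ranged from -0.58 (without Co replicate 2) to -0.090 (without Co replicate 1) and the second from -0.73 (without FeEV replicate 5) to -0.19 (without Co replicate 1).

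**Figure D2:**
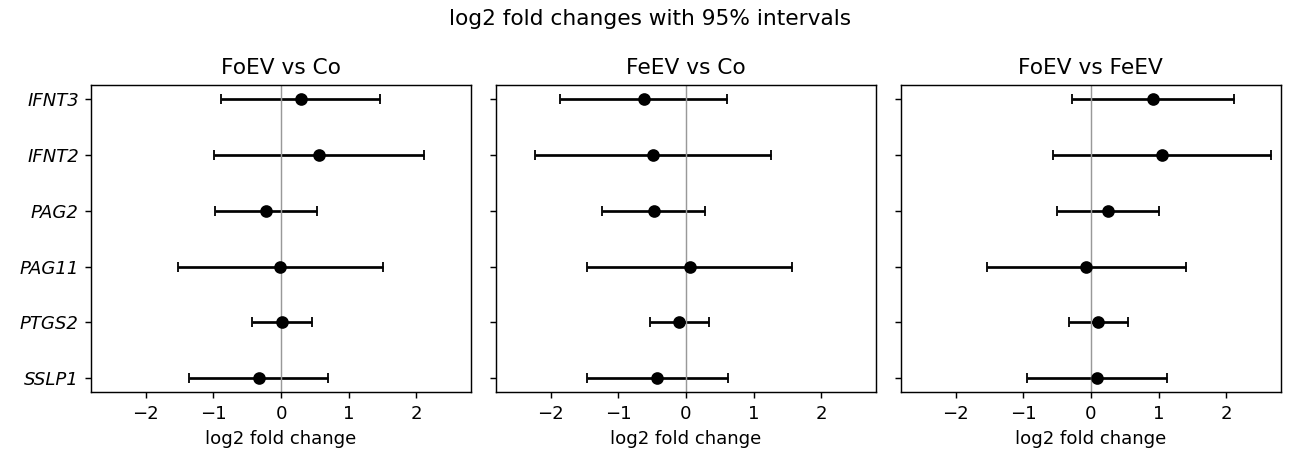
log2 fold changes (horizontal axis) with 95% intervals from the edgeR quasi-likelihood fit for 6 members in the 3 comparisons. Every interval includes 0, the PTGS2 intervals are the narrowest, and IFNT3 in FoEV against FeEV reaches from -0.29 to 2.12.

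The members spread widely between pools of the same treatment. The SD of log2 CPM within treatments, pooled over treatments, was 1.28 for PAG11, 0.95 for IFNT3, 0.83 for SSLP1, 0.61 for PAG2 and 0.36 for PTGS2, against 0.25 for the median gene of the filtered table. Only 22 of the 10832 genes had a larger SD than PAG11, 78 than IFNT3 and 138 than SSLP1, whereas 432 exceeded PAG2 and 2518 exceeded PTGS2. PAG11 has few reads, and its SD includes counting error. The biological coefficient of variation, which edgeR estimates with counting error removed, gave a similar order, at 0.65 for PAG11, 0.48 for IFNT3, 0.42 for SSLP1, 0.31 for PAG2 and 0.21 for PTGS2 against a median of 0.15. Within a treatment the highest IFNT3 library exceeded the lowest by 3.88 times in Co, 3.24 times in FeEV and 8.75 times in FoEV, and the same ratio for PTGS2 was at most 1.87.

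The same pools were low for different members. Co replicate 2 was the lowest Co library and FoEV replicate 4 the lowest FoEV library for 5 of the 5 members in the filtered table, and FoEV replicate 1 was the highest FoEV library for 5 of 5. In FeEV the lowest library was replicate 2 for 3 members and replicate 4 for 2. After subtraction of treatment means, the 10 pairs among IFNT3, PAG2, PAG11, PTGS2 and SSLP1 were correlated over the 15 libraries, from r = 0.69 for IFNT3 with SSLP1 to r = 0.91 for IFNT3 with PTGS2. Permutation of libraries within treatments (100000 draws, two-sided) gave an adjusted p of at most 0.0102 for r over the 40 relations examined. Spearman's rho ran from 0.475 (IFNT3 with SSLP1, permutation p = 0.0869) to 0.87 (PAG2 with PTGS2), and with rho every pair but IFNT3 with SSLP1 passed. Without the 2 libraries farthest from the median the r values lay between 0.46 and 0.85, and with the library number of the descriptions as a further factor between 0.78 and 0.97. That factor leaves few degrees of freedom among 15 libraries, and number 1 belongs to Co replicate 1 alone.

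PTGS2 had no value between 1402 and 1698 CPM. Among the 10 libraries above this gap, again after subtraction of treatment means, r ranged from -0.10 for IFNT3 with SSLP1 to 0.74 for IFNT3 with PTGS2, with 0.63 for PAG11 with SSLP1 and 0.37 for IFNT3 with PAG2. These libraries were selected by the level of a member, which narrows the range of every gene correlated with it, and no test is drawn from them. The 5 libraries below the gap are too few for a correlation of their own.

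**Figure D3:**
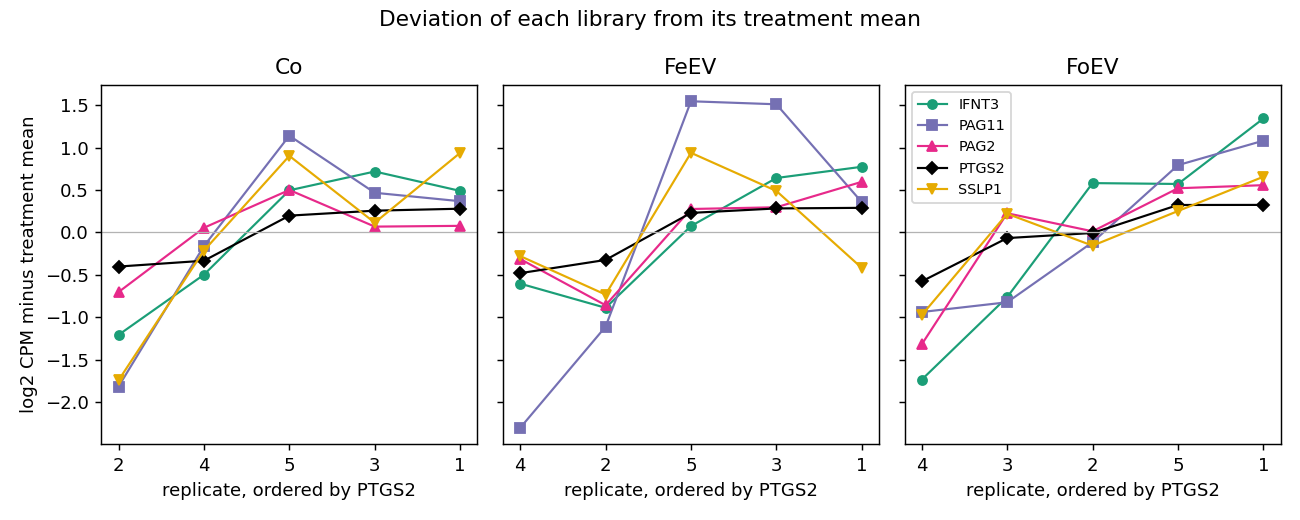
Deviation of log2 CPM from the treatment mean (vertical axis) for IFNT3, PAG11, PAG2, PTGS2 and SSLP1 in each library, with the replicates of each treatment ordered by PTGS2. The lines lie below 0 together in Co replicate 2, FeEV replicates 2 and 4 and FoEV replicate 4, and above 0 together in Co replicates 1, 3 and 5, FeEV replicates 3 and 5 and FoEV replicates 1 and 5.

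Other measures moved with the same libraries. On the deviations from treatment means, log2 total counts were correlated with PAG11 (r = 0.77, rho = 0.81, permutation adjusted p = 0.00606 for r). PTGS2 (r = 0.71, rho = 0.85, adjusted p = 0.00356) and IFNT3 (r = 0.49, rho = 0.77, adjusted p = 0.0396) were correlated with them too. PAG2 and SSLP1 gave r = 0.45 and 0.46 (permutation adjusted p = 0.129 and 0.0770). Their rho was 0.71 and 0.65 (permutation adjusted p = 0.0200 and 0.0344 for rho). With total counts as a covariate the 10 member pairs had r from 0.60 to 0.91. The mean log2 CPM of the inner cell mass markers NANOG, SOX2, POU5F1 and KLF4 ran opposite to PTGS2 (r = -0.83, rho = -0.82, permutation adjusted p = 0.00356), IFNT3 (r = -0.81, rho = -0.82, adjusted p = 0.00404) and PAG2 (r = -0.76, rho = -0.77, adjusted p = 0.00671). PAG11 and SSLP1 gave r = -0.65 and -0.49 with it (adjusted p = 0.0188 and 0.119). The corresponding mean of 9 trophectoderm markers ran with SSLP1 (r = 0.84, rho = 0.86, permutation adjusted p = 0.00356) and PAG11 (r = 0.83, rho = 0.83, adjusted p = 0.00404), and for IFNT3 it gave r = 0.50 and rho = 0.35 (adjusted p = 0.0870). PTGS2 and PAG2 gave r = 0.72 and 0.57 with this mean (adjusted p = 0.0179 and 0.0465). Without the 2 farthest libraries r was 0.62, 0.89 and 0.86 for total counts with PAG11, PTGS2 and IFNT3. For the inner cell mass mean it was then -0.81, -0.76 and -0.79 with PTGS2, IFNT3 and PAG2. For the trophectoderm mean it was 0.78, 0.84 and 0.55 with SSLP1, PAG11 and IFNT3. With total counts as a covariate the inner cell mass mean gave r = -0.74, -0.75 and -0.69 with PTGS2, IFNT3 and PAG2. PAG11 and SSLP1 then gave -0.40 and -0.32 with it. The trophectoderm mean gave 0.79, 0.69 and 0.27 with SSLP1, PAG11 and IFNT3 under this covariate, and 0.49 and 0.42 with PTGS2 and PAG2. The percentage of ribosomal RNA reads gave r between -0.40 and 0.15 for the members. The part of depth or of cell composition in the members' spread was not tested.

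**Figure D4:**
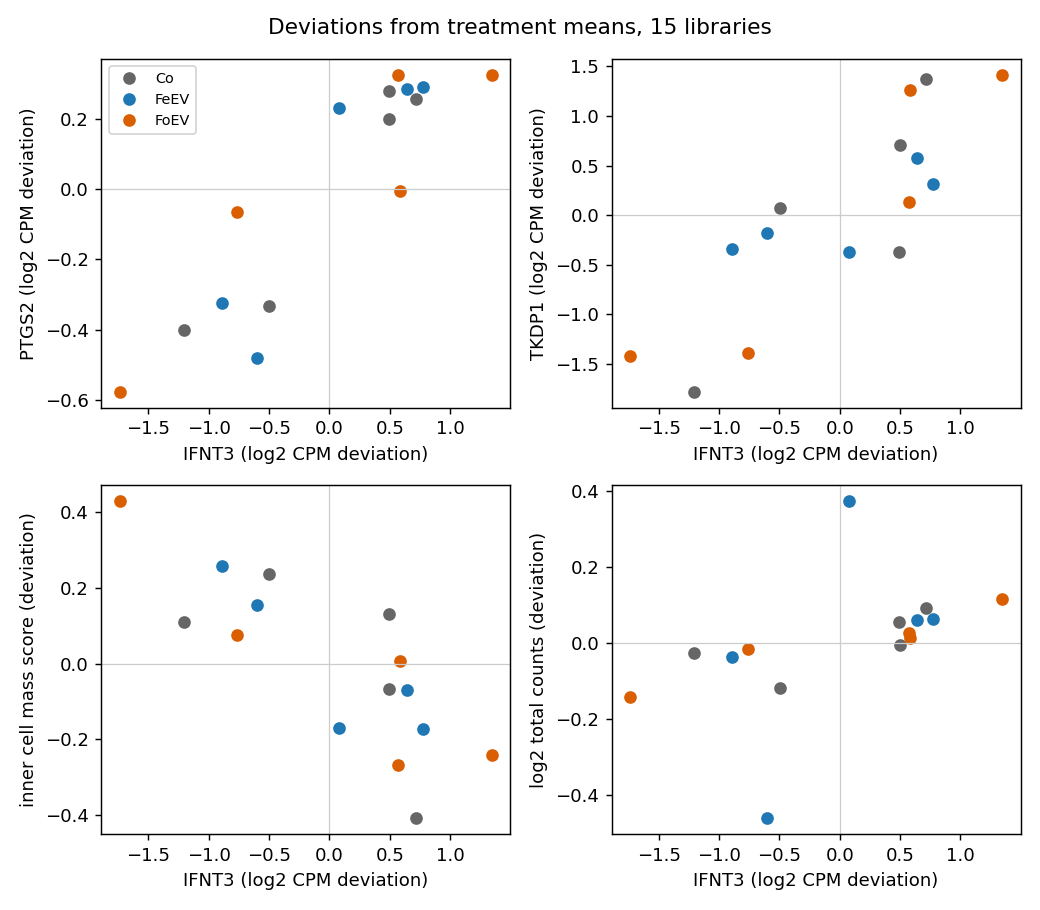
Deviations from treatment means of PTGS2, TKDP1, the inner cell mass score (mean log2 CPM of 4 markers) and log2 total counts (vertical axes) against that of IFNT3 (horizontal axis, log2 CPM) in 15 libraries coloured by treatment. TKDP1 rises with IFNT3 (r = 0.85), PTGS2 does too (r = 0.91), and the inner cell mass score runs opposite (r = -0.81).

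The genes whose log2 CPM was most like that of a member over the 15 libraries are given as a description, since all points share depth and pool. For IFNT3 they were LOC112445660 (r = 0.95), DYNLT3 (0.94), a dynein light chain, and S100A11 (0.94), a calcium-binding protein. PTGS2 was closest to TXNDC5 (0.94), a protein disulphide isomerase, DYNLT3 (0.92) and ANXA4 (0.91), an annexin. PAG2 was closest to EIF2AK2 (0.94), the interferon-inducible kinase PKR, followed by SNX10 (0.92) and LOC104973964 (0.92). The nearest to SSLP1 were EPAS1 (0.95), a hypoxia-inducible factor, the mucin MUC1 (0.94) and the glycolytic enzyme ENO1 (0.93), and the nearest to PAG11 were FLCN (0.91), APOA1 (0.90) and SWAP70 (0.89). Among the members themselves, PTGS2 ranked 15, PAG2 49, PAG11 143 and SSLP1 343 of all genes by likeness to IFNT3, and 85 genes reached r = 0.8 with it. On deviations from treatment means, 2 of the 3 nearest genes remained among the nearest 3 for IFNT3, PAG11, PTGS2 and SSLP1, and 1 of 3 for PAG2.

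Of 14 other trophoblast secreted products listed, 12 had records and only TKDP1 was well counted. TKDP1, a trophoblast Kunitz domain protein, had 2391 reads and averaged 41.8 ± 29.6 CPM (SD, n = 5 each) in Co, 32.8 ± 10.3 CPM in FeEV and 65.7 ± 52.4 CPM in FoEV. Its log2 fold change for FoEV against FeEV was 1.01 (SE 0.63, edgeR Benjamini-Hochberg adjusted p = 0.662), near that of IFNT3, and the 2 genes varied together within treatments (r = 0.85, rho = 0.87, permutation adjusted p = 0.00356, r = 0.76 without the 2 farthest libraries). TKDP4 had 7 reads. The remaining 10 records, comprising TKDP2, the placental lactogen CSH2 and the prolactin-related proteins, had 0 reads, which for each allows up to 3 in the 47673914 reads counted.

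Upstream of interferon tau, 9 of 10 listed regulators were in the filtered table and 0 passed the adjusted threshold. For FoEV against Co, 2 of them were higher and 1 was lower when a raw p under 0.05 was taken, against 8.18% and 6.88% of all filtered genes. ETS2, the factor best known for binding the interferon tau promoter, averaged 28.4 ± 3.57 CPM (SD, n = 5 each) in Co, 21.9 ± 4.03 CPM in FeEV and 19.5 ± 5.07 CPM in FoEV. Its log2 fold change was -0.53 for FoEV against Co (SE 0.17, edgeR Benjamini-Hochberg adjusted p = 0.165) and -0.38 for FeEV against Co (SE 0.17, adjusted p = 1.00). The study used edgeR with a robust dispersion and a likelihood ratio, and it lists ETS2 among its genes lower in FoEV than in Co. The trophectoderm factors GATA2 and GATA3 had log2 fold changes of 0.34 (SE 0.15) and 0.19 (SE 0.08) for FoEV against Co, with edgeR Benjamini-Hochberg adjusted p-values of 0.276 and 0.238. The coactivator EP300, the regulator with the most CPM, had a log2 fold change of 0.02 (SE 0.10), and EOMES had 16 reads in all. The median log2 fold change of the 9 was 0.06, 0.10 and 0.03 for FoEV against Co, FeEV against Co and FoEV against FeEV.

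On the receiving side, 6 of 7 genes of the type I interferon receptor and its signalling were in the filtered table and 0 passed the adjusted threshold. JAK1, a receptor-bound kinase, was the only one with an unadjusted p under 0.05, at 90.5 ± 8.20 CPM in Co and 74.1 ± 4.69 in FoEV (log2 fold change -0.29, SE 0.09, edgeR Benjamini-Hochberg adjusted p = 0.171). The receptor chain IFNAR2 had 11 reads in 5 libraries. Of 28 interferon response genes with records, 7 were in the filtered table and 0 passed, and the classical targets ISG15, RSAD2 and OAS2 had 32, 14 and 4 reads in all. MX1 and EIF2AK2 of the same list were better counted, with 864 and 1295 reads. For FoEV against FeEV, MX1 had a log2 fold change of 1.06 (SE 0.73, edgeR Benjamini-Hochberg adjusted p = 0.687). HERC5, an ISG15 ligase, was lower in FoEV than in Co (log2 fold change -0.52, SE 0.21, edgeR Benjamini-Hochberg adjusted p = 0.240) and IRF7, an interferon regulatory factor, was higher (0.46, SE 0.21, adjusted p = 0.299), neither past the threshold. In FeEV against Co, HERC5 had -0.50 (SE 0.21) and IRF1 had -0.65 (SE 0.29), both with an edgeR Benjamini-Hochberg adjusted p of 1.00. The summed level of the 28 genes overlapped between treatments, at 110 to 225 CPM in Co, 90.2 to 177 in FeEV and 99.2 to 198 in FoEV.

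Around PTGS2, 9 of 21 prostaglandin synthesis and signalling genes with records were in the filtered table, PTGS2 included, and 0 passed the adjusted threshold. PLA2G4A, the phospholipase that releases arachidonic acid, averaged 33.0 ± 10.3 CPM (SD, n = 5 each) in Co, 22.6 ± 3.73 CPM in FeEV and 23.0 ± 7.52 CPM in FoEV, with log2 fold changes against Co of -0.54 (SE 0.23, edgeR Benjamini-Hochberg adjusted p = 1.00) and -0.51 (SE 0.22, adjusted p = 0.284). PTGES3, a prostaglandin E synthase and HSP90 cochaperone, had a log2 fold change of -0.19 for FoEV against Co (SE 0.08, edgeR Benjamini-Hochberg adjusted p = 0.278). PTGES, the inducible prostaglandin E synthase, stood at 78.2 ± 22.7, 61.4 ± 25.8 and 70.8 ± 25.0 CPM, and AKR1B1, which can form prostaglandin F, at 222 ± 57.5, 197 ± 71.5 and 240 ± 75.9 CPM in Co, FeEV and FoEV. The constitutive cyclooxygenase gene PTGS1 had 60 reads in all, and the receptor gene PTGER2 had 0.

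The markers of the blastocyst's own lineages were present and overlapped between treatments as summed levels. The 9 trophectoderm markers summed to 6791 to 9298 CPM in Co, 7241 to 11125 in FeEV and 8731 to 11899 in FoEV, and the 5 inner cell mass markers to 334 to 441, 320 to 439 and 317 to 510 CPM. For FoEV against Co, 4 of the 9 trophectoderm markers were higher at an unadjusted p under 0.05 and 0 lower, against 8.18% and 6.88% of all filtered genes. GATA2 and GATA3 count here and among the interferon tau regulators, and POU5F1 of the inner cell mass list is also among those regulators. The keratin KRT18 had a log2 fold change of 0.55 (SE 0.13, edgeR Benjamini-Hochberg adjusted p = 0.0818), and KRT8 had 0.25 (SE 0.11, adjusted p = 0.289). The pluripotency factor NANOG had -0.84 (SE 0.26, edgeR Benjamini-Hochberg adjusted p = 0.178) and the hypoblast product FN1 had -0.29 (SE 0.14, adjusted p = 0.331). By its own test the study lists KRT18 as higher and NANOG as lower in FoEV than in Co. Of cells that could be carried along, oviduct epithelium markers summed to 14.0 to 34.6 CPM over the 15 libraries with OVGP1 at 32 reads in all, cumulus markers to 23.1 to 44.6 CPM with PTX3 at 1 read, and leukocyte markers to 1.65 to 12.9 CPM with PTPRC at 3 reads. In FeEV against Co, MUC16 of the oviduct list had -0.88 (SE 0.36) and FSHR of the cumulus list -0.55 (SE 0.23), both with an edgeR Benjamini-Hochberg adjusted p of 1.00. Over all libraries GATA6 of the hypoblast list averaged 423 CPM, CYP19A1 of the cumulus list 21.4, PAX8 of the oviduct list 8.39 and LCP1 of the leukocyte list 4.89. Their part in the members' values was not tested.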

How the data were processed

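Low-input, strand-selected total RNA libraries were sequenced as single-end reads. The authors deposited an unfiltered table of raw read counts per gene and a filtered copy, on the ARS-UCD1.2 (bosTau9) assembly. The methods name QuasR for counting, while the submitters' processing notes list Trim Galore 0.4.3.1, HISAT2 2.1.0 and featureCounts 1.6.3, and the handling of multiply matching reads and of strand is not given in the sources used here. Gene IDs were paired with symbols from a RefSeq gene table of ARS-UCD2.0, which matched 31262 of 34773 IDs in the unfiltered and 10709 of 10832 in the filtered table; this assembly served for names and neighbouring records only, and no coordinates or sequences are printed.

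Counts were scaled by TMM and tested in edgeR 4.0.16 (R 4.3.3) with the robust quasi-likelihood F test, treatment being the only factor, over all 15 libraries. P-values were adjusted by the Benjamini-Hochberg method over all 10832 filtered genes, and IFNT2 and PAG12 were read from the same test on 17993 unfiltered genes with at least 10 reads. CPM values use the same scaling, and log2 CPM a prior count of 2. Counts were simulated for all 15 libraries over 10832 genes with the trended dispersion, and FoEV was tested against Co. Of 200 randomly drawn genes changed in FoEV by a log2 value of 1, 86% were recovered with 5.495% false calls. Where none was changed, 0 genes were called. This recovery need not hold for the members, whose biological coefficients of variation were larger than the median gene's (0.65 for PAG11, 0.48 for IFNT3 and 0.42 for SSLP1 against 0.15). The members, the gene lists and the tests were chosen with earlier results of these data known. From each list the genes with an unadjusted p under 0.05 (at most 3 per comparison) and the 2 with the highest CPM were named, with for each filtered member the 3 genes most correlated with it, except 1 gene that is not reported here; ISG15, RSAD2, OAS2, PTGES, AKR1B1, PTGS1, PTGER2, EOMES, IFNAR2, IFN-tau-c1 and single negative markers were added after their values were seen. The alternatives comprised another scaling, other filters, a likelihood ratio test after robust dispersion, DESeq2 1.42.0, blocks and the omission of each library; those for correlations were chosen after seeing the data.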

Additional observations from a re-analysis of the deposited data

How the results depend on the processing

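The number of filtered members called stayed at 0 in every comparison under the alternatives run (DESeq2 gave no adjusted p for PAG11 and IFNT2 in FoEV against Co). The 18 fold changes of the 6 members above the limit of detection passed no threshold (smallest adjusted p 0.440, likelihood ratio test). They kept their direction in 386 of 423 alternatives and reversed in 37, 25 of them with 1 library left out. The 386 overstates their stability, since some alternatives could hardly move a fold change. Among these were the omission of a library from the treatment not compared and, for the other members, the summing of the interferon tau records. The number of all genes called for FoEV against Co was 1, and became 138 with DESeq2, 311 with the likelihood ratio test, 57 with the replicate block, 12 with the block from the library number and 0 to 58 without 1 library. For FeEV against Co it was 0, and became 1 with DESeq2, 6 with the likelihood ratio test and 0 to 1 without 1 library; for FoEV against FeEV it was 0, and became 3, 31 and 0 to 1 in the same order and 1 with the block from the library number. The cause was not tested. Whether the titles' replicate numbers pair the samples cannot be told from so few pairs. Deviations of same-numbered libraries correlated at 0.0344, 0.138 and 0.186 on average for FoEV against Co, FeEV against Co and FoEV against FeEV. Differently numbered libraries averaged -0.00844, -0.0343 and -0.0464 in the same order. The lowest same-numbered pairs were -0.291, -0.214 and 0.0134. Libraries sharing a library number in the descriptions correlated at 0.0762, 0.0968 and 0.0724. Their ribosomal RNA shares were 15.54% and 16.29% for number 2, and 18.36%, 18.07% and 19.01% for number 4. They were 27.98% and 28.22% for number 6, and 22.82% and 22.54% for number 7. Number 5 had 23.24%, 20.16% and 20.66%, and number 3 had 25.98% and 15.88%. Whether the library number marks a shared run was not tested.

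Reversals were as follows. The replicate block gave PAG11 0.046 for FoEV against Co, -0.071 for FeEV against Co and 0.12 for FoEV against FeEV. The block from the library number gave IFNT2 -0.10 and PTGS2 -0.0017 for FoEV against Co, PAG11 -0.31 for FeEV against Co and SSLP1 -0.086 for FoEV against FeEV. For PAG11 the likelihood ratio test gave -0.062 for FeEV against Co and 0.019 for FoEV against FeEV, DESeq2 gave -0.024 for FeEV against Co, and the difference in log2 CPM was -0.38 and 0.37. Without 1 library, FoEV against Co ranged from -0.10 to 0.98 for IFNT2, -0.12 to 0.54 for IFNT3, -0.38 to 0.33 for PAG11 and -0.076 to 0.13 for PTGS2. FeEV against Co ranged from -0.33 to 0.40 for PAG11 and -0.19 to 0.0082 for PTGS2, and FoEV against FeEV from -0.43 to 0.32 for PAG11 and -0.092 to 0.40 for SSLP1. The correlation of IFNT3 with SSLP1 was -0.10 among the 10 libraries above the gap in PTGS2. It is not counted as a reversal, because these libraries were selected by the level of a member.

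With 5 pools a treatment and the spread shown, the 95% intervals of IFNT3, IFNT2, PAG2, PAG11 and SSLP1 each include a 2-fold difference in at least 1 comparison, and those of PTGS2 do not. PAG12 had too few reads for a fold change.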
